A study of Rattus norvegicus with 12 samples.

Results

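Voltage-gated calcium channels, voltage-gated sodium channels and hyperpolarization-activated HCN channels were followed in the striatum of rats after methamphetamine (MA) self-administration. The genes were chosen by symbol, as the calcium channel pore-forming (*Cacna1*), α2δ (*Cacna2d*), β (*Cacnb*) and γ (*Cacng*) subunits, the sodium channel α and β subunits (*Scn*) and the *Hcn* genes, and by a mean count of at least 10 over 12 libraries. Of the 17337 genes in the table, 34 are described. These are 8 calcium channel α1, 3 α2δ, 4 β and 7 γ genes, 6 sodium channel α and 3 β genes, and 3 HCN genes. The 7 that missed the limit were *Cacna1f*, *Cacna1s*, *Cacna2d4*, *Cacng6*, *Scn7a*, *Scn10a* and *Scn11a*. *Scn4a*, the sodium channel of skeletal muscle, was the member closest to the limit with a mean count of 11.5, and *Scn11a*, a sodium channel of sensory neurons, was the gene closest below it with 9.25.

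These channels set how a neuron turns synaptic input into spikes and spikes into transmitter release. Sodium channel α subunits form the pore that carries the action potential, and their β subunits tune gating and membrane insertion. Calcium channel α1 subunits form pores that open at high or low voltage, while α2δ and β subunits bring them to the membrane and most γ subunits of the brain are partners of AMPA receptors. HCN channels open on hyperpolarization, are gated by cyclic nucleotides and shape the resting potential. In the striatum, medium spiny projection neurons make up most neurons, and calcium and sodium channels there are targets of dopamine signalling.

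Each library came from the striatum of 1 wild-type male Sprague–Dawley rat that, by its label, had self-administered MA for 16 days. The MA12 rats (n = 4, numbers 21, 31, 4N and 7N) were killed 12 h after the last session and the MA24 rats (n = 4, numbers 9N, 14N, 15N and 16N) 24 h after it. The other 4 rats (numbers 9, 11, 12 and 13) are called non-addicted in the labels, which give them the same drug and number of days, while the hour at which they were killed is not given in the sources used here. The study's text describes a saline group, an MA group without abstinence and the 12 h and 24 h groups, but no non-addicted group. Which of these, if any, the non-addicted rats belong to is not given, so their access to MA rests on the labels alone. By the labels, no drug-naive or saline rats are among the rats used here, and every comparison is between rats that had access to MA. With 12 h between the killing of both groups, time since the last session and time of day cannot be told apart. Per the study's methods, RNA of all groups was extracted in 1 batch. Rat numbers end in N in all 4 MA24 rats, in 2 of 4 MA12 rats and in no non-addicted rat, and what N stands for is not given.

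The libraries held 17908962 to 23850284 counted reads, and the 10 genes with the most counts took 4.49% to 6.26% of a library. Rats of 1 group differed by more than counting error (chi-square per degree of freedom 9.72 to 28.0 for pairs in a group), so p-values measure the spread between rats. Levels are given as CPM, the read count of a gene scaled to the TMM-adjusted total of its library. Counts grow with transcript length, so values are compared between rats and not between genes. Each pair of groups was compared with edgeR's quasi-likelihood test, and a gene passed when its Benjamini-Hochberg adjusted p over all genes tested was below 0.05. A DEG also had an FC of at least 1.5. With 4 rats against 4, the smallest p of a two-sided exact permutation test is 0.0286. In tissue RNA, fewer cells of a type and less RNA per cell cannot be told apart.

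At 24 h compared with 12 h, 4 of the channel genes described were lower and none was higher. All 4 are calcium channel subunit genes by symbol. They were *Cacna2d1*, an α2δ subunit and the binding site of gabapentin, *Cacnb4*, a β subunit of presynaptic calcium channels, *Cacna1e*, the pore of R-type calcium channels, and *Cacng2*, also called stargazin, which carries AMPA receptors to the synapse. Falls ran from -0.55 to -0.86 on the log2 scale, and each gene came from another class. In all 4, every MA24 rat lay below every MA12 rat. No sodium channel gene described here passed the test in this fit, though some passed under other settings given below.

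Of the 34 channel genes, 31 entered this test, and the 4 that passed were 12.9% of them, beside a background of 3.32% of the 10754 genes tested that passed lower. This share and those below describe genes chosen with earlier results of these data known. Higher calls were 0 of 31, beside 1.84% of all genes. All but *Cacng2* of the 4 were also lower DEGs, a call that 1.72% of all genes received, and none was a higher DEG, beside 0.735%. At an unadjusted p below 0.05, 10 were lower (32.3%, beside 13.1% of all genes) and 2 higher (beside 10.5%). The log2FC was below 0 for 23 of the 31 (74.2%, beside 51.7% of all genes), and its median was -0.18, compared with -0.02 over all genes tested. The groups did not overlap for 6 genes in the lower direction (19.4% of the 31, background 8.32%) and for 1 in the higher direction (background 7.17%). In a principal component analysis of all 12 libraries, the first component (19.5% of the variance) placed MA12 rats 21 and 31 at -24.8 and -23.0, MA12 rats 4N and 7N at 5.22 and 5.56, all MA24 rats at 11.0 to 26.5 and the non-addicted rats at -24.3 to 5.01. Over the 12 rats, which share libraries and groups, its Pearson r was -0.78 with *Cacnb4*, -0.74 with *Cacna1e*, -0.67 with *Cacna2d1* and -0.30 with *Cacng2*. Such values were not particular to these 4 genes. Among channel genes that did not pass, r was -0.84 with *Cacna1g*, 0.77 with *Cacnb3*, 0.73 with *Hcn2* and -0.72 with *Scn2a*. The part of this component in the falls was not tested.

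**Figure D1:**
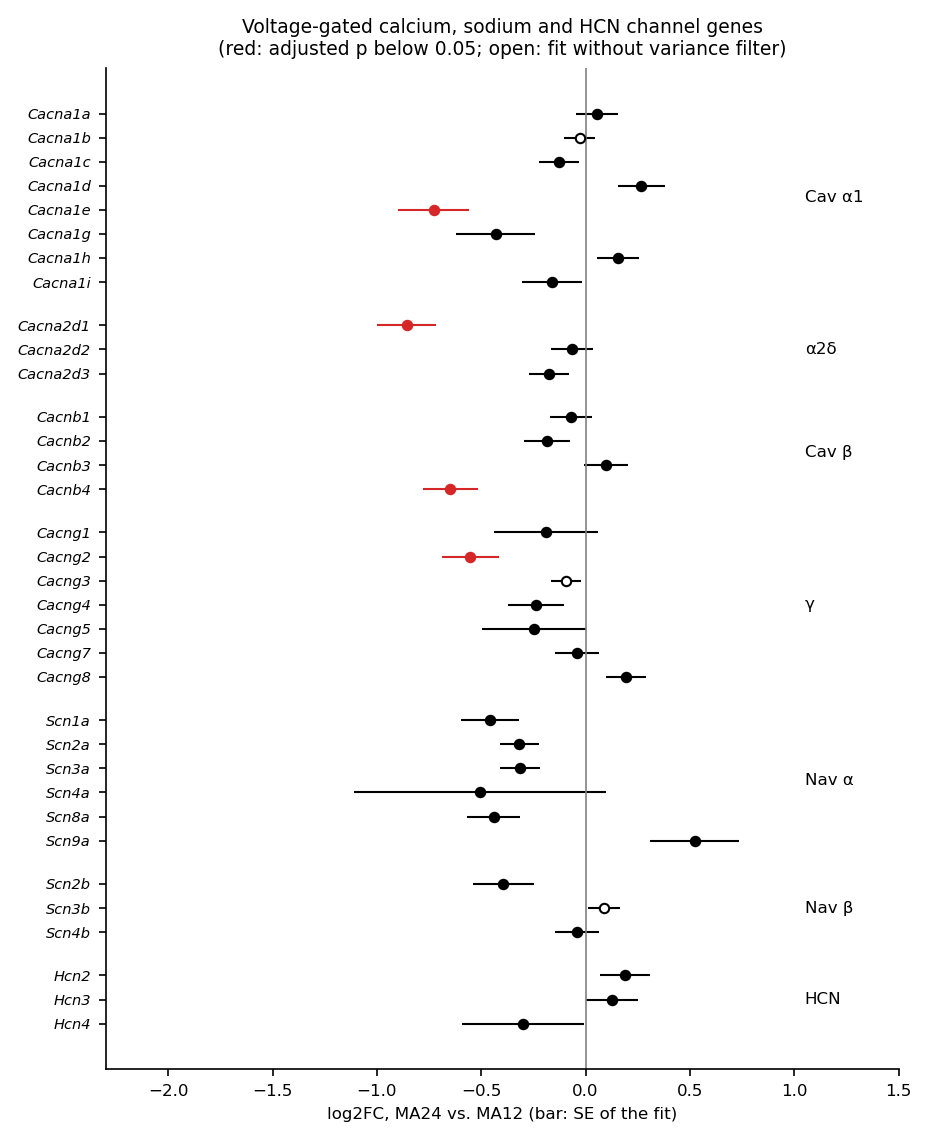
Log2FC of the 34 channel genes in MA24 vs. MA12 (horizontal axis), ordered by class, with the SE of the fit as bars. Red points are the 4 genes with an adjusted p below 0.05, all to the left of 0, and the 3 open points are genes removed by the variance filter, shown from the fit without it.

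*Cacna2d1* had the smallest adjusted p. In MA12 it was at 83.5 (rat 21), 73.8 (rat 31), 83.7 (rat 4N) and 73.1 CPM (rat 7N), and in MA24 at 57.0 (rat 9N), 30.0 (rat 14N), 44.0 (rat 15N) and 42.3 CPM (rat 16N). The non-addicted rats lay in between or within the MA24 range, at 45.2 (rat 9), 59.1 (rat 11), 64.1 (rat 12) and 53.9 CPM (rat 13). The lowest MA12 rat was thus well above the highest MA24 rat, and rat 14N was the lowest of all 12. The level was 6.29 ± 0.11 log2 CPM (SD, n = 4) in MA12 and 5.40 ± 0.38 in MA24, a 1.81-fold fall (log2FC -0.86 ± 0.14 SE, adjusted p = 0.00558). The other α2δ genes did not pass, *Cacna2d2* at -0.06 ± 0.10 SE and *Cacna2d3* at -0.18 ± 0.10 SE. *Cacna2d3*, the α2δ gene with the most counts, was at 300.3 (rat 21), 284 (rat 31), 335 (rat 4N) and 309 CPM (rat 7N) in MA12 and at 285 (rat 9N), 246 (rat 14N), 287 (rat 15N) and 269 CPM (rat 16N) in MA24, so that these groups overlapped. As a share of all α2δ CPM, *Cacna2d1* went from 16.3% ± 0.75 (SD, n = 4) in MA12 to 10.5% ± 1.8 in MA24, with 13.3% ± 1.7 in the non-addicted rats.

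*Cacnb4* was the only β gene that passed. Its level in MA12 was 76.1 (rat 21), 67.3 (rat 31), 64.1 (rat 4N) and 66.6 CPM (rat 7N), and in MA24 it was 51.5 (rat 9N), 30.3 (rat 14N), 47.1 (rat 15N) and 45.9 CPM (rat 16N). The 4 non-addicted rats were all above the MA24 rats, at 56.4 (rat 9), 63.5 (rat 11), 65.7 (rat 12) and 64.6 CPM (rat 13). Rat 14N was again the lowest of all, while the other 3 MA24 rats lay close together. The fall was 1.57-fold (log2FC -0.65 ± 0.13 SE, adjusted p = 0.0110), from 6.10 ± 0.11 to 5.42 ± 0.34 log2 CPM (SD, n = 4). *Cacnb3*, the β gene with the most counts, was at 347 (rat 21), 424 (rat 31), 467 (rat 4N) and 439 CPM (rat 7N) in MA12 and 421 (rat 9N), 437 (rat 14N), 443 (rat 15N) and 495 CPM (rat 16N) in MA24. Its groups overlapped, with a log2FC of 0.10 ± 0.10 SE, and *Cacnb1* and *Cacnb2* had -0.07 and -0.18.

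No HCN gene described here passed. *Hcn2*, a slowly opening channel that responds strongly to cAMP and the HCN gene described here with the most counts, had log2FC 0.19 ± 0.12 SE, adjusted p = 0.350. It was at 230.1 (rat 21), 240.3 (rat 31), 332 (rat 4N) and 286 CPM (rat 7N) in MA12, at 314 (rat 9N), 269.6 (rat 14N), 300.1 (rat 15N) and 358 CPM (rat 16N) in MA24 and at 216 (rat 9), 247 (rat 11), 235 (rat 12) and 314 CPM (rat 13) in the non-addicted rats. All 3 groups overlapped. The log2FC was 0.13 ± 0.13 SE for *Hcn3* and -0.30 ± 0.29 SE for *Hcn4*, the channel of the cardiac pacemaker.

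Among the calcium channel pores, only *Cacna1e* passed. The MA12 values were 89.9 (rat 21), 94.1 (rat 31), 76.9 (rat 4N) and 65.8 CPM (rat 7N), and the MA24 values were 58.8 (rat 9N), 29.1 (rat 14N), 47.6 (rat 15N) and 61.8 CPM (rat 16N). MA12 rat 7N and MA24 rat 16N were close to each other, so the gap between the groups was small. The non-addicted rats spanned both groups, at 44.2 (rat 9), 88.3 (rat 11), 78.3 (rat 12) and 76.0 CPM (rat 13). The fall was 1.66-fold (log2FC -0.73 ± 0.17 SE, adjusted p = 0.0202). *Cacna1a*, the pore of P/Q-type channels at nerve terminals and the α1 gene with the most counts, had 215 (rat 21), 246 (rat 31), 264 (rat 4N) and 234 CPM (rat 7N) in MA12 and 251 (rat 9N), 225 (rat 14N), 243 (rat 15N) and 276 CPM (rat 16N) in MA24. These ranges overlapped, with a log2FC of 0.05 ± 0.10 SE. The N-type gene *Cacna1b* was removed by the variance filter and had -0.03 ± 0.07 SE without it. Of the L-type genes, *Cacna1c* had -0.13 ± 0.10 SE, and *Cacna1d*, which opens at lower voltages, had 0.27 ± 0.11 SE with an adjusted p of 0.159. The T-type genes *Cacna1g*, *Cacna1h* and *Cacna1i* had log2FCs of -0.43, 0.15 and -0.16, none of which passed.

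*Cacng2* was the γ gene that passed, with the smallest change of the 4. It was at 19.2 (rat 21), 17.9 (rat 31), 20.4 (rat 4N) and 18.1 CPM (rat 7N) in MA12, at 12.5 (rat 9N), 10.9 (rat 14N), 12.4 (rat 15N) and 15.8 CPM (rat 16N) in MA24 and at 14.1 (rat 9), 12.8 (rat 11), 13.0 (rat 12) and 14.0 CPM (rat 13) in the non-addicted rats. The MA12 rats were above all 8 other rats, whose levels overlapped. The fall of 1.47-fold (log2FC -0.55 ± 0.14 SE, adjusted p = 0.0260) was below the FC limit for a DEG. The call was lost when MA12 rat 21 (adjusted p = 0.0759), MA12 rat 4N (0.0604), MA24 rat 14N (0.0719) or MA24 rat 15N (0.0666) was left out. *Cacng8*, another AMPA receptor partner and the γ gene with the most counts, had 98.8 (rat 21), 99.7 (rat 31), 96.4 (rat 4N) and 104 CPM (rat 7N) in MA12 and 113 (rat 9N), 109 (rat 14N), 107 (rat 15N) and 127 CPM (rat 16N) in MA24. Every MA24 rat was above every MA12 rat, yet *Cacng8* did not pass (log2FC 0.19 ± 0.09 SE, adjusted p = 0.220). The other γ genes had log2FCs from -0.25 (*Cacng5*) to -0.04 (*Cacng7*).

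**Figure D2:**
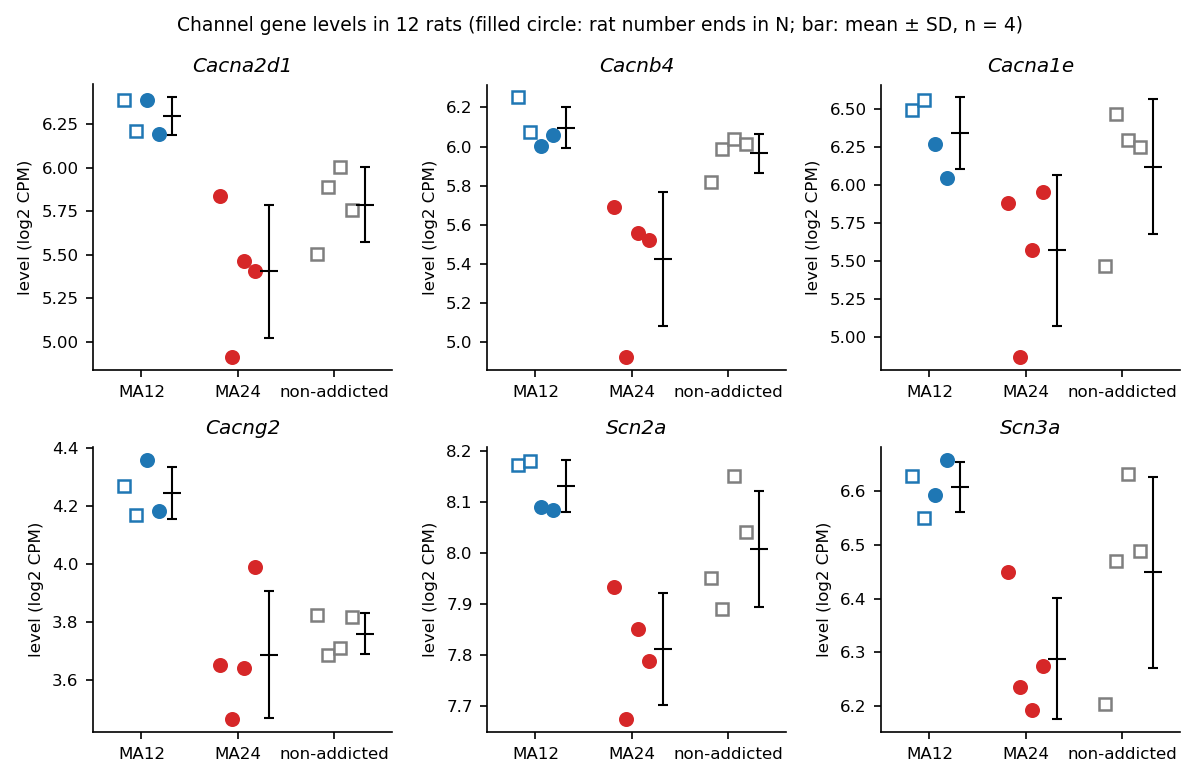
Levels of the 4 genes that fell from MA12 to MA24 and of *Scn2a* and *Scn3a*, which did not pass, in log2 CPM (vertical axes, not starting at 0), for each of 12 rats in 3 groups. Filled circles are rats whose number ends in N, open squares are the others, and black bars are mean ± SD (n = 4), and in all 6 panels each MA24 rat lies below each MA12 rat.

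The 6 sodium channel α genes described gave no call, although 4 of them were lower at an unadjusted p below 0.05, beside 13.1% of all genes. *Scn2a*, a main sodium channel of excitatory neurons and the α gene with the most counts, was at 288 (rat 21), 290.0 (rat 31), 273 (rat 4N) and 271 CPM (rat 7N) in MA12 and at 245 (rat 9N), 204 (rat 14N), 231 (rat 15N) and 221 CPM (rat 16N) in MA24. The groups did not overlap, but the difference was small and missed the threshold (log2FC -0.32 ± 0.09 SE, adjusted p = 0.0531). *Scn3a*, which is highest in the immature brain, ranged from 93.6 to 101 CPM in MA12 and from 73.0 to 87.3 CPM in MA24, again without overlap (log2FC -0.32 ± 0.10 SE, adjusted p = 0.0596). *Scn8a*, concentrated at the axon initial segment, had log2FC -0.44 ± 0.13 SE, adjusted p = 0.0510, and *Scn1a*, which is strong in fast-spiking interneurons, had log2FC -0.46 ± 0.14 SE, adjusted p = 0.0605. These 4 genes passed with DESeq2, where their adjusted p lay between 0.0111 (*Scn2a*) and 0.0392 (*Scn1a*). With edgeR's quasi-likelihood test but no variance filter, *Scn2a* (adjusted p = 0.0348) and *Scn3a* (0.0374) passed, while *Scn8a* (0.0680) and *Scn1a* (0.0783) did not. Among rats numbered with N alone, none of them passed, and the adjusted p of that test ran from 0.238 (*Scn3a*) to 0.363 (*Scn1a*). Of 17 alternatives, *Scn2a* passed in 7, *Scn3a* in 6, *Scn8a* in 5 and *Scn1a* in 3. The sum of these 6 α genes was 528 to 589 CPM in MA12, 385 to 496 CPM in MA24 and 437 to 538 CPM in the non-addicted rats, so MA12 and MA24 did not overlap. *Scn2a* alone made up 49.0% to 51.4% of it in MA12 and 49.3% to 53.0% in MA24. The sum is thus not separate from the *Scn2a* values above. *Scn9a*, known from pain-sensing neurons, had a log2FC of 0.52 ± 0.21 SE, and *Scn4a* one of -0.51 ± 0.60 SE from its few counts.

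None of the sodium channel β genes described passed. *Scn4b*, which is abundant in striatal projection neurons and supports resurgent sodium current, had 1716 (rat 21), 1830.1 (rat 31), 2231 (rat 4N) and 2217 CPM (rat 7N) in MA12, 2031 (rat 9N), 1823 (rat 14N), 1958 (rat 15N) and 1957 CPM (rat 16N) in MA24 and 1711 (rat 9), 1631 (rat 11), 1539.8 (rat 12) and 2096 CPM (rat 13) in the non-addicted rats. All 3 groups overlapped, and the log2FC of MA24 vs. MA12 was -0.04 ± 0.11 SE. *Scn2b* and *Scn3b*, which also tune sodium channel gating, had -0.39 (*Scn2b*, adjusted p = 0.113) and, without the variance filter, 0.09 (*Scn3b*).

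Since rats numbered with N were unevenly spread, MA24 was also compared with MA12 rats 4N and 7N alone. The log2FC then was -0.84 for *Cacna2d1*, the gene that still passed (adjusted p = 0.00472). It was -0.57 for *Cacnb4* (adjusted p = 0.0607), -0.52 for *Cacna1e* (0.143) and -0.57 for *Cacng2* (0.124). With the kind of number as a covariate over all 8 rats, *Cacna2d1* was again the gene that passed (adjusted p = 0.0341). The log2FC with this covariate was -0.59 for *Cacnb4*, -0.54 for *Cacna1e* and -0.59 for *Cacng2*, beside -0.65, -0.73 and -0.55 in the main fit. The 4 falls kept their direction in both fits, which are not separate checks, while 3 of the calls were lost. Why these calls were lost was not tested.

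RefSeq gives a start region (GRCr8 build, 250 bases before to 50 after the start) for 22 of the 34 genes, among them 3 of the 4 that fell, which are shown because these genes fell together. All are written 5′ to 3′ on the strand of the gene. Capitals mark matches to the GC box (GGGCGG) in the first and to the TATA box (TATAAA) in the last. Both strands and all positions were searched by letters alone, and the matches read CCGCCC and TTTATA here. The regions are *Cacna2d1* at chr4:20330098-20330397 (minus strand, the first of 3 entries), *Cacna1e* at chr13:69444761-69445060 (minus strand) and *Cacng2* at chr7:111577708-111578007 (minus strand).
Cacna2d1: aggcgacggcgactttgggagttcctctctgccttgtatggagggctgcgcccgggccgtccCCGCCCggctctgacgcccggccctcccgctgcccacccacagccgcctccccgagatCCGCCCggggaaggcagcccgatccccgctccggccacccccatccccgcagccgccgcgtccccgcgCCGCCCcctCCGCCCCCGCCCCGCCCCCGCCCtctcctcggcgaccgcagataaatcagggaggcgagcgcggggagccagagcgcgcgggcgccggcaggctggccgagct
Cacna1e: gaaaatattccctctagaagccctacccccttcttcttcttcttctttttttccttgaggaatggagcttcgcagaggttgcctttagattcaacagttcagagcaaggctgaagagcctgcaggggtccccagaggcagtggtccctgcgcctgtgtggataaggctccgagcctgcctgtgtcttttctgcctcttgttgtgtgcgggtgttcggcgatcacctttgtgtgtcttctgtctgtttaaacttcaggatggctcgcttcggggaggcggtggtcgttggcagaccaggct
Cacng2: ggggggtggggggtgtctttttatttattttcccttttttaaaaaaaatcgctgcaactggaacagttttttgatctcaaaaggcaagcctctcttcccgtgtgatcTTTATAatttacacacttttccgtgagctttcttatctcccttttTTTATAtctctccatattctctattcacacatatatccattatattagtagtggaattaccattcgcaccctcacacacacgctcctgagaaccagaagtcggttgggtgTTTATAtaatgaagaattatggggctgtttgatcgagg
The *Cacna2d1* region was rich in G and C (78.3%, with 41 CpG and 7 GC boxes, of which 1 pair overlaps by a base). That of *Cacna1e* had 53.7% G and C and no motif searched, and that of *Cacng2* had 39.0% and 3 matches to the TATA box. All 3 matches lie on the opposite strand, and the last lies after the start. A GC box was present in 11 of the 22 regions, beside 33.1% of all 33469 regions. The median share of G and C was 66.8% in the 22 regions and 51.7% in all regions. Its part in the GC box count was not tested. A match to the TATA box was present in 1 of 22 (14.2% of all). Neither the E-box CACGTG (6.42% of all) nor the cAMP response element TGACGTCA (1.83% of all) was in any of the 22. No motif searched was in more than 1 of the 3 regions shown.

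Genes that bind or steer these channels were counted from a list of 42 partners, of which 37 were in the table and 31 were tested in MA24 vs. MA12. One passed in each direction, beside the background of 3.32% lower and 1.84% higher, and the median log2FC was -0.09. Both are named for their place on the list, as the lower count was close to the background share. *Pex5l*, which encodes the HCN channel partner TRIP8b, fell from 5.49 ± 0.20 to 4.70 ± 0.45 log2 CPM (SD, n = 4; log2FC -0.75 ± 0.16 SE, adjusted p = 0.0154). *Prrt2*, whose protein acts on sodium channels and vesicle release, rose from 7.90 ± 0.07 to 8.26 ± 0.04 log2 CPM (log2FC 0.36 ± 0.09 SE, adjusted p = 0.0260). The *Prrt2* call was lost without MA12 rat 21 (adjusted p = 0.0765), MA12 rat 4N (0.0519), MA24 rat 14N (0.0595) or MA24 rat 15N (0.0644). It was also lost among rats numbered with N alone (0.143) and with the kind of number as a covariate (0.133), with which the *Pex5l* call was lost too (0.0992). No partner passed in either comparison with the non-addicted rats (28 tested against MA12 and 32 against MA24).

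Non-addicted rats were compared with MA12 and with MA24 rats in fits that share those groups with the comparison above, so the values stand side by side and are not independent. Against MA12, none of 33 channel genes passed with edgeR, beside 0.167% of all genes lower and 0.102% higher. At an unadjusted p below 0.05, 7 were lower (21.2%, beside 7.03% of all genes) and 1 higher (beside 5.31%). Both DESeq2 and edgeR's likelihood ratio test called 2, *Cacna2d1* and *Cacng2*, lower, while over all genes they called 173 and 164. *Cacna2d1* had log2FC -0.50 ± 0.11 SE, adjusted p = 0.0557, and *Cacng2* had log2FC -0.49 ± 0.12 SE, adjusted p = 0.0810. Without MA12 rat 7N, *Cacna2d1* passed (adjusted p = 0.0362). In both genes, each non-addicted rat was below each MA12 rat, as also in *Cacna2d3* and *Cacng7*. These 4 genes were 12.1% of the 33, beside 3.6% of all genes whose groups did not overlap in that direction and 3.5% in the other, where there was no channel gene. The other genes that fell from MA12 to MA24 had log2FCs of -0.14 (*Cacnb4*) and -0.20 (*Cacna1e*).

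Against MA24, none of 28 channel genes passed with edgeR, beside 0.382% of all genes higher and 0.168% lower. At an unadjusted p below 0.05, 4 were higher (beside 9.33% of all genes) and 1 lower (3.57%, beside 8.16%). *Cacnb4* was the gene whose groups did not overlap, higher in the non-addicted rats (log2FC 0.51 ± 0.13 SE, adjusted p = 0.0818), a pattern seen in 5.09% of all genes, and no channel gene described had it in the lower direction (background 4.89%). DESeq2 (adjusted p = 0.0235) and edgeR's likelihood ratio test (0.0199) called *Cacnb4* and no other of the 28, with 253 and 271 of all genes called. *Cacna1e* had 0.53 ± 0.20 SE, *Cacna2d1* 0.35 ± 0.15 SE and *Cacng2* 0.06 ± 0.15 SE. Without non-addicted rat 9, *Cacna1e* passed (log2FC 0.71, adjusted p = 0.0485), and without non-addicted rat 13, *Cacna1g* (0.84, adjusted p = 0.0179) and *Hcn2* (-0.43, adjusted p = 0.0442) did. As no non-addicted rat and all MA24 rats have a number ending in N, the kind of number and the group cannot be told apart here.

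**Figure D3:**
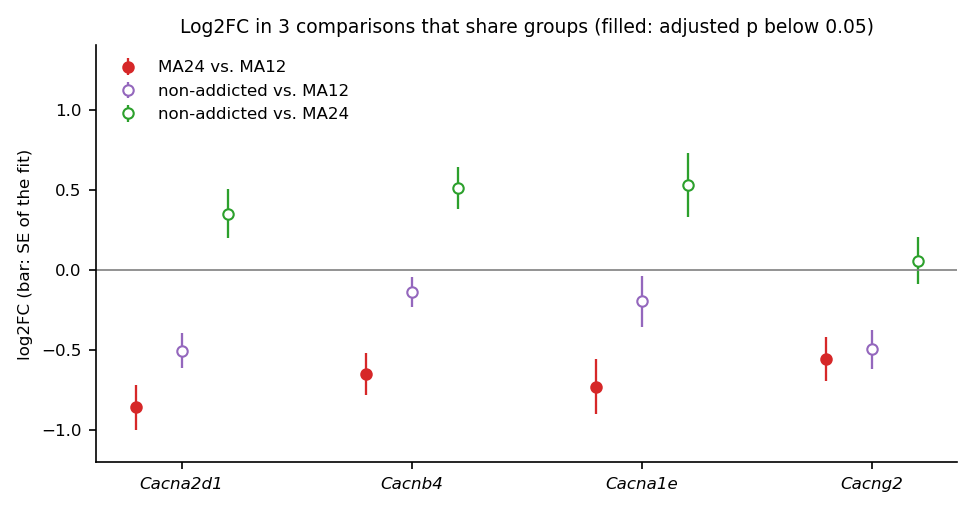
Log2FC (vertical axis, bars are the SE of the fit) of 4 channel genes in 3 comparisons that share groups. Filled points passed the test, which were the 4 falls in MA24 vs. MA12, and open points did not.

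*Cacna1g*, a T-type pore known for burst firing in the thalamus, varied widely within groups. It was at 25.6 (rat 21), 21.5 (rat 31), 12.9 (rat 4N) and 12.4 CPM (rat 7N) in MA12, 13.2 (rat 9N), 14.3 (rat 14N), 13.4 (rat 15N) and 13.0 CPM (rat 16N) in MA24 and 16.5 (rat 9), 34.9 (rat 11), 21.1 (rat 12) and 12.0 CPM (rat 13) in the non-addicted rats. Levels were highest in 5 rats, all with a number that does not end in N, and lower in the other 7, among them all 6 with N. The log2FC was -0.43 ± 0.19 SE in MA24 vs. MA12 and 0.65 ± 0.22 SE in non-addicted vs. MA24, neither of which passed. The same 5 rats had the highest sum of 5 markers of ependymal cells or choroid plexus (of 6 listed), which was 41.0 to 84.9 CPM in them and 21.5 to 36.7 CPM in the others. None of these 5 markers was at 0 in every rat. The sum of 8 thalamic or hypothalamic markers was 31.4 to 86.5 CPM in the 5 rats and 29.7 to 47.0 CPM in the others, with *Prkcd* its most abundant gene. Their part in the *Cacna1g* values was not tested.

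**Figure D4:**
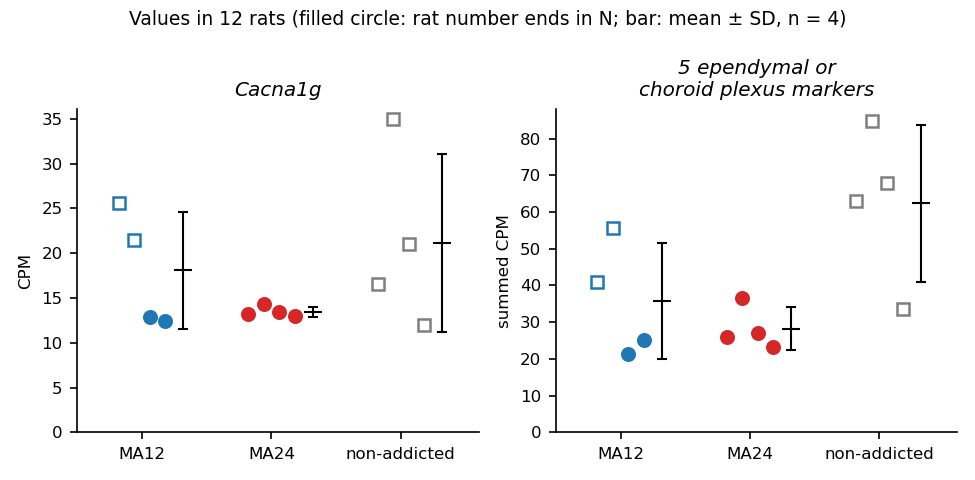
*Cacna1g* and the sum of 5 ependymal or choroid plexus markers in 12 rats, in CPM (vertical axes from 0). Filled circles are rats whose number ends in N, open squares the others and black bars mean ± SD (n = 4), and the same 5 open squares are highest in each panel.

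Across the 12 rats, the channel genes most like *Cacna2d1* in log2 CPM were *Cacnb4* (Pearson r = 0.90), *Scn2a* (0.90), *Scn8a* (0.89), *Scn1a* (0.89) and *Scn2b* (0.89). The points share libraries and the difference between groups, so these values are a description of likeness only. *Cacna1d* was the least alike, with r = -0.72. Single rats stood at the ends of many genes. MA24 rat 14N was the lowest of all 12 rats in 12 of the 34 genes and the highest in 1, and MA12 rat 4N was the highest in 10. Without rat 14N, 3 of the 4 falling genes still passed, with *Cacna2d1* at -0.72, while *Cacnb4* (-0.51) and *Cacna1e* (-0.55) came under the FC limit for a DEG. Without MA24 rat 9N, 9 channel genes passed, while the calls over all genes went from 555 to 809.

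**Figure D5:**
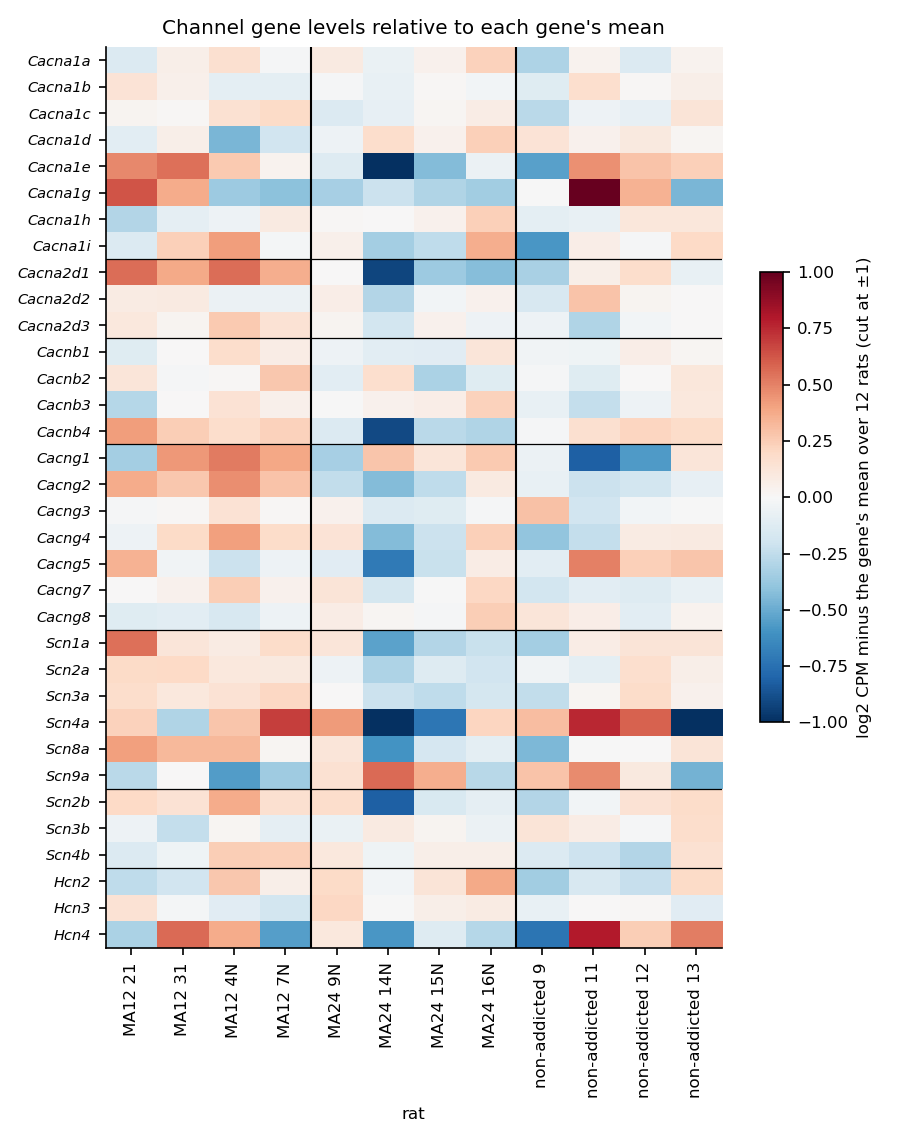
Level of each channel gene (rows, by class) in each rat (columns, by group) as log2 CPM minus the gene's mean over 12 rats, with colours cut at ±1. *Cacna2d1* and *Cacnb4* are above their means in each MA12 rat and near or below them in each MA24 rat, with rat 14N darkest in *Cacna2d1*, *Cacnb4* and *Cacna1e*.

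The tissue label was checked with marker genes. All 13 markers of striatal projection neurons were present, with a sum of 14926 to 18998 CPM in MA12, 17488 to 19285 CPM in MA24 and 14755 to 17825 CPM in the non-addicted rats. In MA24 vs. MA12, 1 of 12 tested markers of these neurons, 1 of 9 of striatal interneurons, 1 of 6 of astrocytes, 1 of 6 of thalamic or hypothalamic neurons and 2 of 7 of mural cells or fibroblasts passed lower, and none of any list passed higher, beside 3.32% and 1.84% of all genes. Beside the 4 falling channel genes, the 8 mural or fibroblast markers summed to 123 to 188 CPM in MA12 and 110.2 to 137 CPM in MA24. The list of cortical excitatory neurons (7 of 8 in the table) was carried by *Nrgn*, which striatal neurons also express, at 3398 to 4754 CPM in MA12 and 4748 to 5790 CPM in MA24, while its other 6 genes summed to 21.1 to 24.5 CPM and 15.8 to 28.8 CPM. Of the markers, *Pmch* of the hypothalamus and *Col1a2* of fibroblasts were at 0 in every rat. The part of these cells in the channel values was not tested.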

How the data were processed

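Striatal poly-A RNA of 12 rats was sequenced (TruSeq RNA v2). Per the labels and methods, the authors used Cutadapt 1.18 for trimming, STAR 2.7.0e for alignment to rn6 and featureCounts for counting, and deposited raw counts per gene without normalization. The submitters' notes also name HTSeq 0.12.4. How strands and reads with several positions were treated is not given in the sources used here, so overlapping and near-identical genes are uncertain.

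Within each pair of groups, genes whose mean count over the 8 libraries was above 4 were kept and the 15% least variable in log2 CPM were dropped. TMM scaling and edgeR 4.0.16 (glmQLFit, glmQLFTest; R 4.3.3) followed, with Benjamini-Hochberg adjustment over the 10754 genes tested in MA24 vs. MA12, or over 10758 (non-addicted vs. MA12) and 10744 (non-addicted vs. MA24). SE is the log2FC divided by the root of F. Log2 CPM has a prior count of 2. Exact permutation tests used all 70 regroupings (Python 3.11.15, scipy 1.17.1). Alternatives were DESeq2 1.42.0, the likelihood ratio test, RLE factors, other filters, 3 groups in the fit, the kind of rat number and each rat left out. Scripts were tested on simulated data. Values per rat are given for genes that passed in any comparison, the gene with the most counts in each class and genes without overlap in more than 1 comparison. *Cacna1g* and *Scn8a*, *Scn3a* and *Scn1a* were singled out after their values were seen. Of the genes that match the symbols and the count limit, 3 stayed in every fit and are not reported here. Genes, partner and marker lists were chosen with earlier results of these data known.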

Additional observations from a re-analysis of the deposited data

Results flagged for a closer look

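In each of 3 groups, the highest and lowest rat of each of the 34 genes was compared with its neighbours by Dixon's ratio, the gap to the nearest rat divided by the range of the group, both in log2 CPM. Of the 102 groups of 4 rats, 5 held a rat that stood apart, and chance gives about 1 in 20, or 5.1.

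In the non-addicted group, rat 11 was lowest in *Cacna2d3* (226 CPM beside 269.9 to 279 CPM, ratio 0.840), and rat 9 was lowest in *Scn1a* (23.1 CPM beside 30.9 to 32.1 CPM, ratio 0.886). In MA12, rat 21 was lowest in *Cacng1*, the γ subunit of skeletal muscle (2.99 CPM from 71 counts beside 5.03 to 5.50 CPM, ratio 0.852). MA12 rat 4N was highest in *Cacng3* (100.3 CPM beside 89.9 to 91.5 CPM, ratio 0.837) and in *Cacng7* (104 CPM beside 87.8 to 90.2 CPM, ratio 0.839). No MA24 rat stood apart by this measure. On the CPM scale, *Cacna2d3* (0.826) and *Cacng1* (0.812) came below the critical value of Dixon's test. None of the 5 is among the 4 genes that fell from MA12 to MA24, and *Cacng7* and *Cacna2d3* are 2 of the 4 genes whose non-addicted and MA12 rats did not overlap.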

How the results depend on the processing

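In MA24 vs. MA12, where 4 channel genes passed, DESeq2 called 8, the likelihood ratio test 8 and a filter of at least 10 counts in every library 7, all of them lower. Calls over all genes rose too, from 555 to 979 (DESeq2), 899 (likelihood ratio test) and 634 (count filter). Without the variance filter 6 channel genes passed (528 of all genes), and without any filter 6 (603 of all genes). Only rats numbered with N gave 1 (131 of all genes), and the kind of number as a covariate, which rests on the same contrast, 1 (49 of all genes). Leaving out 1 rat gave 3 to 9. *Cacna2d1* passed under all 17 alternatives (log2FC -1.02 to -0.72). The covariate turned the log2FC of *Cacna1a* (-0.0077), *Cacnb3* (-0.019) and *Hcn2* (-0.0018), while *Scn4b* ranged from -0.10 to 0.018 without 1 rat.

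Against MA12, where no non-addicted call was made, DESeq2 and the likelihood ratio test gave 2 each, the filter of at least 10 counts 1, and leaving out 1 rat 0 to 1. Against MA24, also without a call, DESeq2 and the likelihood ratio test gave 1 each, and leaving out 1 rat 0 to 2, with 1 without non-addicted rat 9 and 2 without non-addicted rat 13. *Cacng2* ranged from -0.016 to 0.17 there. The cause of these shifts was not tested. Of 424 values of single genes under an alternative, 369 kept direction and side of the threshold, 17 lost and 32 gained a call, and 6 turned.

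No paired analysis was possible because the groups share no rat numbers. *Scn4a*, *Hcn4*, *Cacng1* and *Cacng5* rest on few counts, which limits what a fold change can show.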

Other observations

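*Scn11a*, which missed the count limit, had 51 counts in MA12 rat 31 and 2 to 10 counts in each of the other 11 rats. It was not counted among the channel genes in any comparison above.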
